A study of Homo sapiens with 12 samples.

Results

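The genes described here are 10 of the human genes that make microRNAs and carry out their silencing: DROSHA, DGCR8, XPO5, DICER1, TARBP2, AGO1, AGO2, AGO3, TNRC6A and TNRC6B. They were chosen by name, and all 10 were found among the 35741 genes of the deposited count table. Each had enough reads to be tested, together with 15705 other genes. Polyadenylated RNA was sequenced from U87, an established line from a human glioblastoma, in 12 libraries that form 4 groups of 3. Control cells carried no agent, PNA-10b cells received 150 nM sgPNA-10b against miR-10b, PNA-21 cells received 150 nM sgPNA-21 against miR-21, and PNA-10b+21 cells received 150 nM of each. The treated cells were kept with the agents for 72 h. A PNA, or peptide nucleic acid, is a man-made mimic of a nucleic acid that pairs with a complementary RNA. In every treated group it was given in a carrier that the labels write as BNP, and the labels describe no group with empty carrier or with an unrelated PNA. All 4 groups are the same line. The labels do not say whether the 3 replicates were separate cultures, so p-values measure differences against the spread between these libraries, which may be technical.

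MicroRNAs are cut from longer transcripts in the nucleus by the Microprocessor, which is the nuclease DROSHA held by its RNA-binding partner DGCR8. The hairpin leaves the nucleus with exportin 5, the product of XPO5, and is cut again by DICER1, whose partner is TARBP2. A strand of the product is loaded into an Argonaute protein (AGO1, AGO2, AGO3 or AGO4), of which AGO2 is the one best known as a slicer of fully paired targets. Argonautes recruit the GW182 scaffolds TNRC6A, TNRC6B and TNRC6C, which bring the enzymes that shorten the poly(A) tail. In glioblastoma miR-21 and miR-10b are well known as microRNAs with high levels, and both are made and used by this machinery. The mature microRNAs themselves were not measured in these libraries.

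Total counts per library ran from 12846676 to 18305820, and single members had from 380 to 3580 counts in a library. Of 8 markers of the mesenchymal type of glioblastoma line, all 8 were detected in all 12 libraries. Their summed level was 21460 to 25300 in library-scaled counts (CPM) in control and 17340 to 20350 in the treated groups, and FN1, fibronectin, alone reached 14000. NES was the lowest of the 8, at 10.6 to 16.2 CPM. Detection alone does not set these markers apart, as GFAP and PECAM1, among others of the lists below, were also detected in all 12 libraries. The 5 astrocyte and neural markers found in the table summed to between 7.13 and 9.23 CPM, with SOX2 at no more than 2 counts in any library. The 6 markers of immune, endothelial and epithelial cells found there summed to between 4.83 and 10.1 CPM. Their part in the results below was not tested.

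The sequences described here are the seed of miR-21, which sgPNA-21 is directed against, and its matches in the members. The seed, bases 2 to 8 and written in capitals, is the stretch that pairs with targets, and RefSeq (GRCh38.p14) gives miR-21-5p at chr17:59841273-59841294 on the plus strand.
hsa-miR-21-5p: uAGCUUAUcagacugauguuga
A match to this seed (ATAAGCT, a 7mer-m8 site) was searched for on the sense strand of the longest annotated 3′ UTR of each gene. It was present in 9.35% of 16676 genes, whose 3′ UTRs searched had a median length of 1224 bases. Of the 10 members, DICER1, TNRC6B and AGO2 held a match, all in 3′ UTRs longer than that median. In DICER1 the site lies at chr14:95090040-95090046 on the minus strand, base 452 of a 3′ UTR of 4270 bases. In TNRC6B the sites lie at chr22:40325996-40326002 and chr22:40335407-40335413 on the plus strand, bases 2755 and 12166 of 12567. They are shown with 11 bases on each side, with the 7 matching bases in capitals (GENCODE 29 transcripts, GRCh38).
DICER1 site: tgcagtagttgATAAGCTgaatagaaaga
TNRC6B site a: gttcttccatcATAAGCTtaaagggaaaa
TNRC6B site b: ctaatgtacaaATAAGCTgaaaagttgca
The AGO2 site starts at base 235 of 11888. The base after each of these 4 matches is not A, so none is an 8mer. A match describes letters only, and whether miR-21 binds there was not measured. For miR-10b-5p no site was searched.

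DGCR8 is itself a carrier of microRNA hairpins, which is why its embedded sequences are shown. Background knowledge is that the Microprocessor can cut hairpins within the DGCR8 mRNA and so lower it. RefSeq places miR-3618 at chr22:20085797-20085818 and the 2 arms of miR-1306 at chr22:20086072-20086093 and chr22:20086112-20086129, all on the plus strand as DGCR8 is. All lie in exon 2 of 13 of the DGCR8 transcript with the longest 3′ UTR. The miR-3618 bases are outside the coding part, and the miR-1306 bases are within it.
hsa-miR-3618: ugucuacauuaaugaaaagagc
hsa-miR-1306-5p: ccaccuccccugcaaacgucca
hsa-miR-1306-3p: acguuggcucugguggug

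In untreated cells the members differed in level, which was compared as CPM per kilobase of annotated exon because longer transcripts collect more reads. TNRC6A stood highest, at 15.8 ± 1.04 (SD, n = 3), followed by DROSHA at 12.8 ± 0.638 and TARBP2 at 8.21 ± 0.617. Next came DGCR8 at 6.66 ± 0.591 and DICER1 at 6.11 ± 0.311, whose libraries overlapped. AGO1 at 4.37 ± 0.199, XPO5 at 4.18 ± 0.089 and AGO4 at 4.06 ± 0.0825 overlapped in turn with their neighbours in this order. AGO2 followed at 3.00 ± 0.14. AGO3 at 2.05 ± 0.189 and TNRC6B at 2.01 ± 0.0389 also overlapped, and TNRC6C, the remaining GW182 gene, was lowest at 0.813 ± 0.121. DROSHA thus stood above DGCR8 in every untreated library. Exon lengths here are the union over all annotated transcripts, from 4090 bases in TARBP2 to 21157 in AGO3, so a gene with long unused 3′ ends is given too low a level.

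**Figure D1:**
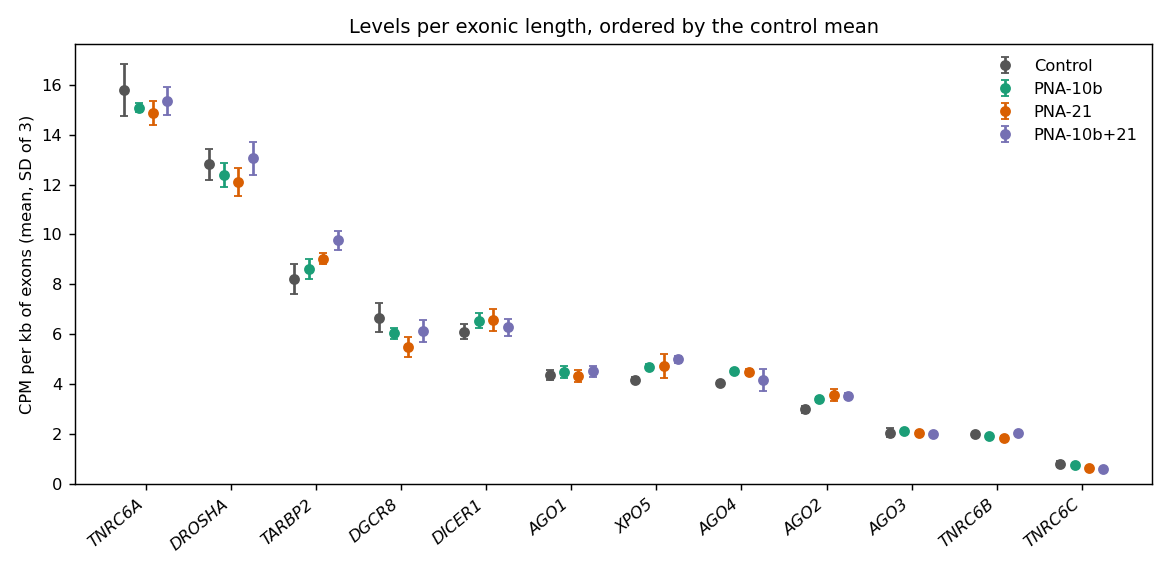
The plot gives the level per exonic length (vertical axis, CPM per kb) of the 10 genes and of AGO4 and TNRC6C in each of the 4 groups. Points are means and bars SDs of 3 libraries. TNRC6A is highest at 15.8 in control and TNRC6C lowest at 0.813, and the groups lie close together for most genes.

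The comparisons with control ask what each sgPNA, or both, changed in U87 cells, carrier included. For most of the 10 genes no change passed the test (edgeR quasi-likelihood test, adjusted p under 0.05 over all genes, referred to as called). In PNA-10b 0 of 10 were called by edgeR or DESeq2, with 2 at an unadjusted p under 0.05, where 6.48% of all genes tested were called. In PNA-21 2 of 10 were called, AGO2 higher and DGCR8 lower, beside 29.8% of all genes. In PNA-10b+21 3 of 10 were called, XPO5, TARBP2 and AGO2, all higher, beside 27% of all genes. The members' counts in PNA-21 and PNA-10b+21 are close to or below those shares, so they do not stand apart as a group. The called changes were small, between 0.23 and 0.28 on the log2 scale in size. The median log2 change of the 10 was -0.02 in PNA-21, 0.03 in PNA-10b+21 and 0.04 in PNA-10b, with -0.01, 0.00 and 0.00 for all genes. Separation of all 3 treated from all 3 control libraries was common in these data. In either direction it was seen in 3, 5 and 3 of the 10 genes in PNA-10b, PNA-21 and PNA-10b+21. The shares of all genes tested were 23.8%, 42.4% and 40.1%, so it marks no gene below as particular. The 3 comparisons share their control libraries, so likeness between them is no separate evidence. In bulk RNA fewer cells expressing a gene and less RNA per cell cannot be told apart.

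**Figure D2:**
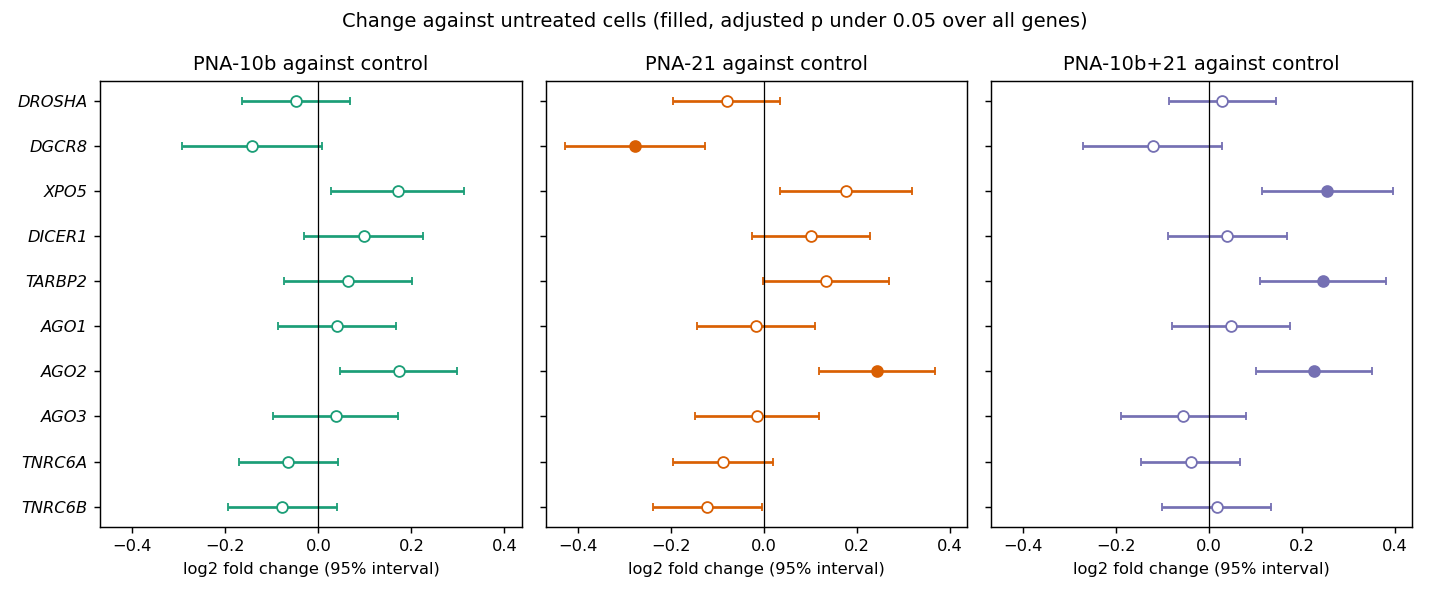
The plot gives the log2 fold change against control (horizontal axis) of each of the 10 genes (vertical axis) in PNA-10b, PNA-21 and PNA-10b+21. Bars are 95% intervals of the fit and filled points are called. Filled points are DGCR8 (-0.28) and AGO2 (0.24) in PNA-21, and XPO5 (0.25), TARBP2 (0.24) and AGO2 (0.23) in PNA-10b+21.

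Of the Microprocessor genes, DGCR8 was called lower in PNA-21 and DROSHA was called in no comparison. DGCR8 (ENSG00000128191, chromosome 22 from 20080232 to 20111877, GRCh38) stood at 43.8, 51.7 and 50.7 CPM in control and at 43.2, 37.6 and 39.8 in PNA-21. It was at 45.9, 42.7 and 43.9 in PNA-10b, and at 47.2, 46.0 and 41.1 in PNA-10b+21. Every PNA-21 library was below every control library, with the nearest values 43.2 and 43.8, whereas the other treated groups overlapped with control. Separation in either direction was seen in 42.4% of all genes in PNA-21. The DGCR8 log2 fold change was -0.28 ± 0.07 (SE) in PNA-21 (adjusted p = 0.00626), -0.14 ± 0.07 in PNA-10b (adjusted p = 0.276) and -0.12 ± 0.07 in PNA-10b+21 (adjusted p = 0.232). DGCR8 shares 12 exonic bases with TRMT2A on the opposite strand, whose value in PNA-21 was 0.09 ± 0.06 (adjusted p = 0.329). It also shares 526 with the antisense gene AC006547.2, which was not analysed here.

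DROSHA (ENSG00000113360, chromosome 5 from 31400497 to 31532196) stood at 94.5, 99.9 and 104 CPM in control and 98.1, 89.5 and 94.9 in PNA-21. In PNA-10b it was at 99.4, 97.2 and 92.4 and in PNA-10b+21 at 105, 104 and 95.8. All 4 groups overlapped. No comparison called it, and its 95% intervals against control ran from -0.19 to 0.04 in PNA-21, -0.16 to 0.07 in PNA-10b and -0.09 to 0.14 in PNA-10b+21.

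The ratio of DGCR8 to DROSHA counts does not depend on how libraries are scaled. Its mean was 0.489 ± 0.0274 (SD, n = 3) in control and 0.426 ± 0.0118 in PNA-21. The mean of PNA-10b was 0.459 ± 0.0183 and that of PNA-10b+21 was 0.441 ± 0.0101. The control libraries were at 0.463, 0.518 and 0.485, above all 3 PNA-21 libraries (0.440, 0.420 and 0.419) and all 3 PNA-10b+21 libraries (0.449, 0.444 and 0.430). With 3 libraries against 3 an exact permutation test (two-sided) cannot go below 0.1, and it gave 0.1 for both of these groups and 0.2 for PNA-10b. Adjusted over the 6 ratio tests made here, the values were 0.15, 0.15 and 0.24.

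Exportin 5, the carrier of the cut hairpins, is encoded by XPO5 (ENSG00000124571, chromosome 6 from 43522330 to 43576075). It stood at 35.7, 34.9 and 36.4 CPM in control and rose to 42.5, 43.8 and 41.3 in PNA-10b+21. In PNA-10b it was at 40.7, 40.6 and 39.0, and in PNA-21 at 45.0, 38.9 and 36.9. All 9 treated libraries lay above the 3 control libraries, and PNA-21 had the widest spread. In each single comparison between 23.8% and 42.4% of all genes were separated from control in either direction. The share with all 9 treated libraries above control was not computed. The log2 fold change was 0.25 ± 0.07 in PNA-10b+21 (adjusted p = 0.0079), 0.18 ± 0.07 in PNA-21 (adjusted p = 0.0553) and 0.17 ± 0.07 in PNA-10b (adjusted p = 0.154). In PNA-21 the value without replicate 3 was 0.24 (adjusted p = 0.0177), a call that the full set did not give. Over all 18 alternatives the PNA-21 value ran from 0.09 to 0.24, with adjusted p from 0.0177 to 0.351. The counting of strand is not given in the sources used here, and 348 of 8522 exonic bases of XPO5 (4.08%) overlap POLR1C on the opposite strand. The POLR1C values were 0.16 ± 0.09 in PNA-10b+21 (adjusted p = 0.193), 0.17 ± 0.09 in PNA-21 (adjusted p = 0.17), close to the XPO5 value there, and -0.02 ± 0.09 in PNA-10b (adjusted p = 0.948). Its part in the XPO5 values was not tested.

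Of the cytoplasmic cutting step, TARBP2 rose in PNA-10b+21 and DICER1 was called nowhere. TARBP2 (ENSG00000139546, chromosome 12 from 53500921 to 53506431) encodes a double-stranded RNA binding protein that steadies Dicer. It stood at 35.1, 34.9 and 30.7 CPM in control and 40.6, 40.9 and 38.2 in PNA-10b+21, where every library was above every library of the other 3 groups. In PNA-10b it was at 37.1, 34.5 and 34.1 and in PNA-21 at 37.0, 36.0 and 37.8. Separation of PNA-10b+21 in either direction was seen in 40.1%, 28.2% and 14.35% of all genes against control, PNA-10b and PNA-21. The TARBP2 log2 fold change in PNA-10b+21 was 0.24 ± 0.07 (adjusted p = 0.00779), and the lowest control library, replicate 3, bore on it: without that library it was 0.19 (adjusted p = 0.0501). In PNA-21 it was 0.13 ± 0.07 (adjusted p = 0.13) and in PNA-10b 0.06 ± 0.07 (adjusted p = 0.657).

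DICER1 (ENSG00000100697, chromosome 14 from 95086228 to 95158010) is the nuclease of this step and one of the members with a miR-21 site. Its libraries were at 73.7, 79.4 and 72.1 CPM in control and at 76.7, 87.2 and 78.3 in PNA-21. They were at 82.7, 76.3 and 82.4 in PNA-10b, and at 74.5, 75.1 and 82.1 in PNA-10b+21. Every treated group overlapped with control. The log2 fold change in PNA-21 was 0.10, with a 95% interval from -0.03 to 0.23 (adjusted p = 0.227). It was 0.10 in PNA-10b and 0.04 in PNA-10b+21, also without a call.

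**Figure D3:**
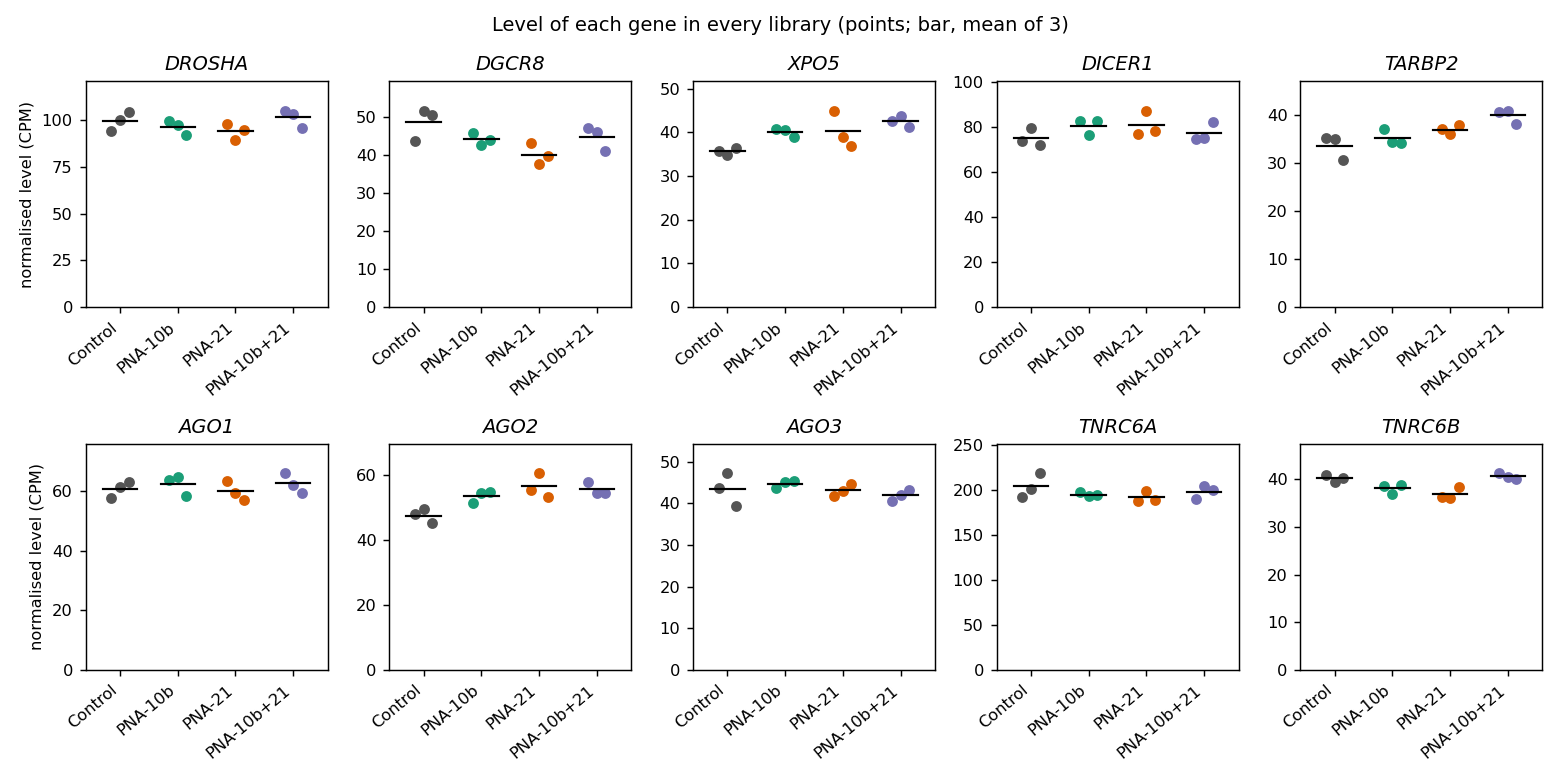
The plot gives the level (vertical axis, CPM, from 0) of each of the 10 genes in every library of the 4 groups (horizontal axis). Points are libraries, replicates 1 to 3 from left to right, and bars are group means. DGCR8 is lowest in PNA-21 at a mean of 40.2 CPM. AGO2 and XPO5 show all treated libraries above control. Separation of a treated group from control in either direction was seen in 23.8%, 42.4% and 40.1% of all genes in PNA-10b, PNA-21 and PNA-10b+21.

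Among the Argonaute genes AGO2 rose while no other member was called. AGO2 (ENSG00000123908, chromosome 8 from 140520156 to 140635619) stood at 47.9, 49.4 and 45.0 CPM in control. The PNA-21 libraries were at 55.4, 60.4 and 53.3, those of PNA-10b at 51.4, 54.4 and 54.8, and those of PNA-10b+21 at 57.8, 54.5 and 54.4. All 9 treated libraries were above the 3 control libraries. In each single comparison 23.8% to 42.4% of all genes were separated from control in either direction. The share with all 9 treated libraries above control was not computed. The AGO2 rise was called in PNA-21 (0.24 ± 0.06, adjusted p = 0.00418) and in PNA-10b+21 (0.23 ± 0.06, adjusted p = 0.00782), and the PNA-10b value of 0.17 ± 0.06 was not called (adjusted p = 0.0944). In folds the changes were 1.18, 1.17 and 1.13. Without PNA-10b+21 replicate 1 the value of that group was 0.19 (adjusted p = 0.0568), short of a call.

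AGO1 (ENSG00000092847, chromosome 1 from 35869808 to 35930528) and AGO3 (ENSG00000126070, chromosome 1 from 35930718 to 36072500) are neighbours on the plus strand. AGO1 stood at 57.6, 61.4 and 63.0 CPM in control and between 57.0 and 66.0 in the 9 treated libraries. AGO3 stood at 43.7, 47.2 and 39.2 in control and between 40.5 and 45.2 in the treated ones. For both, treated and control libraries overlapped in every group. In PNA-21 the 95% interval ran from -0.14 to 0.11 for AGO1 and from -0.15 to 0.12 for AGO3, both with upper ends under the AGO2 value of 0.24. Whether the AGO2 change differs from theirs was not tested gene against gene. AGO4, the remaining Argonaute gene, was at 29.5 ± 0.6 CPM (SD, n = 3) in control. Its means in PNA-10b, PNA-21 and PNA-10b+21 were 32.9 ± 0.548, 32.6 ± 0.959 and 30.2 ± 3.19, with no call (adjusted p = 0.217, 0.14 and 0.752). Its control libraries reached 30.2 CPM at most, below the lowest of PNA-10b (32.2) and of PNA-21 (31.5), and PNA-10b+21 overlapped with control. Separation from control in either direction was seen in 23.8% of all genes in PNA-10b and 42.4% in PNA-21. The AGO4 log2 fold change was 0.16 ± 0.07 in PNA-10b, next to 0.17 ± 0.06 for AGO2. In PNA-21 it was 0.14, with a 95% interval from -0.01 to 0.29 that includes the AGO2 value.

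The share of AGO2 in the summed per-length level of the 4 Argonaute genes is likewise free of library scaling. Its mean was 22.2% ± 0.698 (SD, n = 3) in control and 24.7% ± 1.2 in PNA-21. The mean of PNA-10b was 23.3% ± 0.83 and that of PNA-10b+21 was 24.8% ± 0.409. Control libraries were at 22.6, 22.7 and 21.4%, below all 3 PNA-21 libraries (24.3, 26.1 and 23.8%) and all 3 PNA-10b+21 libraries (24.5, 25.3 and 24.7%). The exact permutation test (two-sided) gave 0.1, the smallest value it can give, for these groups and 0.3 for PNA-10b, and 0.15, 0.15 and 0.3 after adjustment over the 6 ratio tests. Of all 50-base stretches in the transcripts of AGO1, AGO2, AGO3 and AGO4, 0 were shared with another gene of the family.

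**Figure D4:**
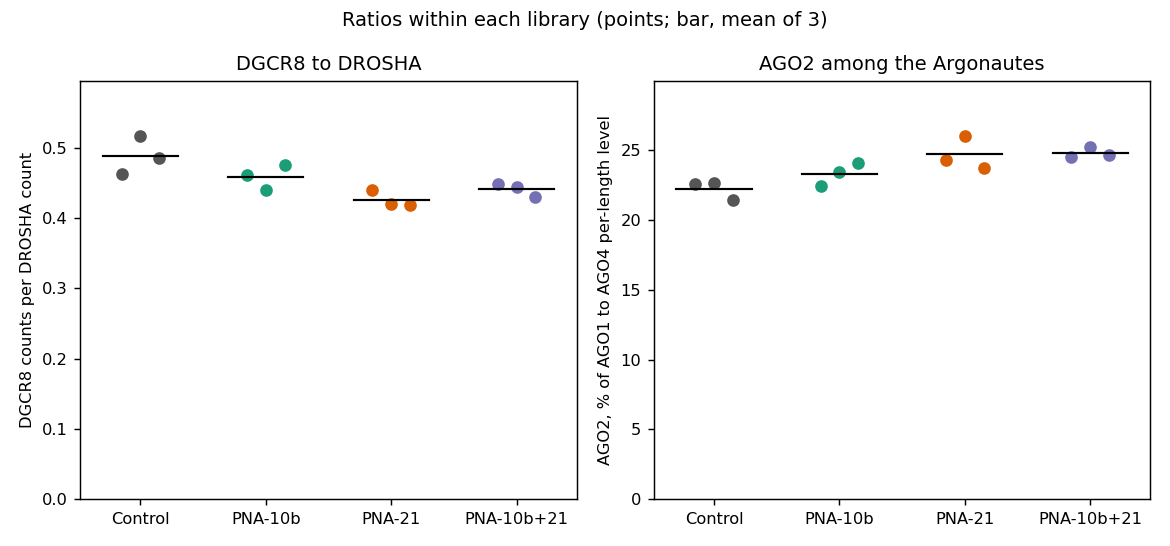
The left panel gives DGCR8 counts per DROSHA count and the right panel AGO2 as a percentage of the per-length level of AGO1 to AGO4 (vertical axes, from 0) in every library of the 4 groups. Points are libraries and bars group means. The mean DGCR8 ratio is 0.489 in control and 0.426 in PNA-21, and the mean AGO2 share is 22.2% and 24.7%.

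The GW182 scaffolds, which link Argonaute to the deadenylases, were called in no comparison among the members. TNRC6A (ENSG00000090905, chromosome 16 from 24610209 to 24827632) stood at 192, 201 and 219 CPM in control and between 188 and 205 in the treated libraries, and all groups overlapped with control. TNRC6B (ENSG00000100354, chromosome 22 from 40044817 to 40335808) stood at 40.9, 39.4 and 40.4 CPM in control. Its PNA-21 libraries were at 36.3, 36.0 and 38.4, those of PNA-10b at 38.6, 37.0 and 38.8, and those of PNA-10b+21 at 41.3, 40.5 and 40.1. The PNA-10b and PNA-21 libraries lay below control. In these comparisons 23.8% and 42.4% of all genes were separated from control in either direction. The TNRC6B log2 fold changes were -0.08 ± 0.06 (adjusted p = 0.485) and -0.12 ± 0.06 (adjusted p = 0.111), and neither was called. TNRC6B is thus a member with 2 miR-21 sites whose value in PNA-21 was not above control. TNRC6C, the remaining family gene and not among the 10, had means of 9.04 ± 1.35 CPM in control (SD, n = 3) and 7.02 ± 0.565 in PNA-21 (-0.35 ± 0.12, adjusted p = 0.0344). In PNA-10b+21 it was at 6.44 ± 0.377 (-0.48 ± 0.12, adjusted p = 0.00633), and in PNA-10b its value was -0.13 ± 0.12 (adjusted p = 0.582).

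The 3 members with a miR-21 site therefore had PNA-21 changes of 0.24 (AGO2, called), 0.10 (DICER1) and -0.12 (TNRC6B). Of the 1269 tested genes with such a site 22.4% were called higher and 14.9% lower in PNA-21, and of all 12234 tested genes with an annotated 3′ UTR 18.7% and 15.7%. In PNA-10b+21, which also received sgPNA-21, the shares with a site were 13.9% higher and 15.3% lower, against 16.6% and 14.5% of all. No test of these shares was made. VMP1, the gene whose transcript overlaps the miR-21 hairpin, had changes of -0.10 ± 0.06, 0.05 ± 0.06 and -0.08 ± 0.06 in PNA-10b, PNA-21 and PNA-10b+21, with no call (adjusted p = 0.438, 0.616 and 0.413).

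Comparisons between treated groups, in which all cells received the carrier, ask what 1 sgPNA did beside or on top of the other. None of the 10 genes was called in any of them by edgeR or DESeq2. In PNA-21 against PNA-10b, at equal dose, 0 of 10 were called, and 0 had an unadjusted p under 0.05, beside 6.79% of all genes called. In PNA-10b+21 against PNA-10b 0 of 10 were called and 1 had an unadjusted p under 0.05, beside 9.7% of all genes called. TARBP2 had the smallest adjusted p of the members (0.0809), with a log2 fold change of 0.18 ± 0.06. In PNA-10b+21 against PNA-21 0 of 10 were called, with 2 at an unadjusted p under 0.05 (DGCR8 and TNRC6B), beside 0% of all genes: edgeR called 0 of 15715, with 1354 at an unadjusted p under 0.05, and DESeq2 called 27. DGCR8, called against control in PNA-21 only, differed between PNA-10b+21 and PNA-21 by 0.16, with a 95% interval from 0.01 to 0.31 (adjusted p = 0.558), so a difference between these arms was not shown. For AGO2 the same difference was -0.02, with an interval from -0.14 to 0.10. XPO5 and TARBP2, called in PNA-10b+21 only, differed from PNA-21 by 0.08 (interval -0.06 to 0.22) and 0.11 (interval -0.02 to 0.24). The interaction compares the combined change with the sum of both single changes on the log2 scale. The part of the larger total dose in it was not tested. The interaction test called 0 of 10, with 3 at an unadjusted p under 0.05, beside 3.12% of all genes called. DGCR8 had the largest value, 0.30 ± 0.10 (adjusted p = 0.108), followed by TNRC6B at 0.22 ± 0.08 (adjusted p = 0.136). The other of these 3 was AGO2, with a negative value of -0.19 ± 0.08 (adjusted p = 0.218).

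Across the 12 libraries the 10 genes did not move as a block. Pearson correlations of log2 CPM between members ran from -0.70 (DROSHA and DICER1) to 0.78 (DROSHA and DGCR8) over 45 pairs. XPO5, TARBP2 and AGO2 had correlations of 0.62 (XPO5 and TARBP2), 0.62 (XPO5 and AGO2) and 0.61 (TARBP2 and AGO2). These points share groups and library scaling, so the values describe the pattern only. The tested genes most like AGO2 were TMTC4 (0.97), ADTRP (0.97) and LIF (0.97), the last a cytokine gene. Those most like XPO5 were NOP14 (0.95), a ribosome assembly factor, TUBB4B (0.94), a beta tubulin, and PVR (0.94). For TARBP2 they were TTC19 (0.94), PCBD1 (0.93) and AUNIP (0.93), and for DGCR8 PDZRN3 (0.89), AL353138.1 (0.88) and MROH8 (0.88).

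Beyond the 10 genes, 108 tested genes of the wider pathway were read from lists. In PNA-10b 2 of them were higher and 4 lower, beside 2.75% and 3.74% of all genes. In PNA-21 28 were higher and 11 lower, beside 15.2% and 14.6%, and in PNA-10b+21 25 were higher and 9 lower, beside 13.6% and 13.4%. The median log2 change of the lists together was 0.02, 0.07 and 0.06, next to 0.00, -0.01 and 0.00 for all genes.

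Of 17 cofactors of the Microprocessor 6 rose and 1 fell in PNA-21, and 6 rose and 0 fell in PNA-10b+21. Of all genes 15.2% rose and 14.6% fell in PNA-21, and 13.6% rose and 13.4% fell in PNA-10b+21. The cofactor that fell was DDX17 (-0.16 ± 0.05), an RNA helicase. KHSRP, which binds the loops of certain precursors, rose by 0.23 ± 0.05 and 0.25 ± 0.05 in these groups, and ILF2, an RNA-binding factor, by 0.17 ± 0.05 and 0.21 ± 0.05. SRSF3, a splicing factor that also binds primary microRNAs, rose by 0.27 ± 0.07 in PNA-21 and was at 0.14 ± 0.07 in PNA-10b+21 (adjusted p = 0.119). Of 6 tested export and Dicer partner genes 4 rose in both groups. They were LIN28B, a low-count gene, XPO1, exportin 1 (0.26 ± 0.05 and 0.25 ± 0.05), RCC1, which charges RAN with GTP (0.17 and 0.24), and RAN, the GTPase that exportins carry (0.14 and 0.17). ADAR, an RNA editing enzyme, was at -0.10 ± 0.05 and -0.03 ± 0.05 without a call. In PNA-10b edgeR called 0 of either list, with 3 of each at an unadjusted p under 0.05, beside 6.48% of all genes called.

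Of 20 genes for Argonaute loading or modification 8 rose and 2 fell in PNA-21, beside 15.2% and 14.6% of all genes. In PNA-10b+21 7 rose and 2 fell, beside 13.6% and 13.4%. Of the chaperone genes, HSP90AA1 rose in PNA-21 and PNA-10b+21 (0.23 ± 0.07 and 0.33 ± 0.07), as did STIP1 (0.23 ± 0.05 and 0.29 ± 0.05). HSP90AB1 was called in neither group (0.06 ± 0.06 and 0.15 ± 0.06), and HSPA8 in PNA-10b+21 only (0.12 ± 0.06 and 0.21 ± 0.06). The HSP90 co-chaperone genes FKBP5 (0.61 ± 0.09 and 0.67 ± 0.09) and FKBP4 (0.22 ± 0.05 and 0.31 ± 0.05) rose too. Those that fell were P4HA1 (-0.75 ± 0.07 and -0.91 ± 0.07) and P4HB (-0.34 ± 0.05 and -0.30 ± 0.05), subunits of the prolyl hydroxylase best known for collagen. FKBP5 (0.43 ± 0.09) and P4HA1 (-0.31 ± 0.07) were also the 2 calls of this list in PNA-10b, where 6.48% of all genes were called.

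Of 19 deadenylation genes 3 rose and 1 fell in PNA-21, beside 15.2% and 14.6% of all genes, and 2 rose and 1 fell in PNA-10b+21, beside 13.6% and 13.4%. These counts are near or below the shares of all genes. CNOT9, a subunit of the CCR4-NOT deadenylase that TNRC6 proteins bind, was at 0.27 ± 0.05 and 0.26 ± 0.05, and PAN2, a catalytic deadenylase, at -0.28 ± 0.07 and -0.21 ± 0.07. CNOT6 and CNOT11 of the same complex rose in PNA-21 (0.20 and 0.25), and their PNA-10b+21 values of 0.09 and 0.14 were not called. There the other gene that rose was PABPC4, a poly(A) binding protein (0.14 ± 0.05). In PNA-10b 0 of the 19 were called by edgeR, with 4 at an unadjusted p under 0.05, beside 6.48% of all genes called. Of 22 decapping and P body genes 2 rose and 2 fell in PNA-21 and 3 rose and 1 fell in PNA-10b+21. These counts too were near or below the shares of all genes. LIMD1, a scaffold of the silencing complex, was the gene of this list with the smallest p, at -0.41 ± 0.06 and -0.40 ± 0.06 in these groups. FMR1, an RNA-binding regulator of translation, rose in PNA-21 (0.32 ± 0.06) and was at 0.06 ± 0.06 in PNA-10b+21 (adjusted p = 0.527). PATL1, a decapping factor, rose in both groups (0.16 and 0.18), DDX6, a helicase of P bodies, fell in PNA-21 (-0.18 ± 0.06), and GEMIN4 and FXR2 rose in PNA-10b+21 (0.21 and 0.20). MOV10, a helicase found with Argonautes, was the sole call of that list in PNA-10b (-0.18 ± 0.05, adjusted p = 0.043).

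Of 10 genes that tail or degrade small RNAs 4 rose in PNA-21, 3 in PNA-10b+21 and 1 in PNA-10b, and 0 fell in any. Of all genes 15.2%, 13.6% and 2.75% rose and 14.6%, 13.4% and 3.74% fell in these comparisons. ERI1, an exonuclease, was called in all 3 comparisons (0.39 ± 0.06 in PNA-21, 0.35 ± 0.07 in PNA-10b+21 and 0.27 ± 0.07 in PNA-10b), and PNPT1, a mitochondrial RNA nuclease, in PNA-21 and PNA-10b+21 (0.24 in each). TENT2, a poly(A) polymerase that can tail microRNAs, rose in PNA-21 (0.21 ± 0.07), as did TENT4B (0.22 ± 0.08), and TUT7, a uridylyl transferase, in PNA-10b+21 (0.15 ± 0.05).

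The microRNA host transcripts are those from which the Microprocessor cuts hairpins. Of 23 listed, 12 had enough reads. Of these 0 rose and 2 fell in PNA-10b, 1 (MIR17HG) rose and 4 fell in PNA-21, and 0 rose and 4 fell in PNA-10b+21, with median log2 changes of -0.13, -0.09 and -0.26. Of all genes 2.75%, 15.2% and 13.6% rose and 3.74%, 14.6% and 13.4% fell in these comparisons. In PNA-21 6 of the 12 host transcripts had a value above 0. MIR99AHG was at 34.0 ± 1.6 CPM in control (SD, n = 3) and fell to 25.6 ± 2.34, 25.9 ± 1.93 and 24.5 ± 2.12 in PNA-10b, PNA-21 and PNA-10b+21, each a call. MIR34AHG fell from 81.1 ± 1.91 to 67.4 ± 5.72, 64.6 ± 6.66 and 64.6 ± 4.74, also a call in each. MIRLET7BHG fell from 20.2 ± 1.09 to 13.6 ± 2.0 in PNA-21 and 15.3 ± 0.829 in PNA-10b+21. Its PNA-10b level of 16.5 ± 0.583 was not called (adjusted p = 0.0698). MIR29B2CHG changed by -0.77 ± 0.16 in PNA-21 and -0.73 ± 0.16 in PNA-10b+21, and by -0.36 ± 0.15 in PNA-10b without a call (adjusted p = 0.171). These are levels of the long host RNAs and say nothing of the mature microRNAs.

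**Figure D5:**
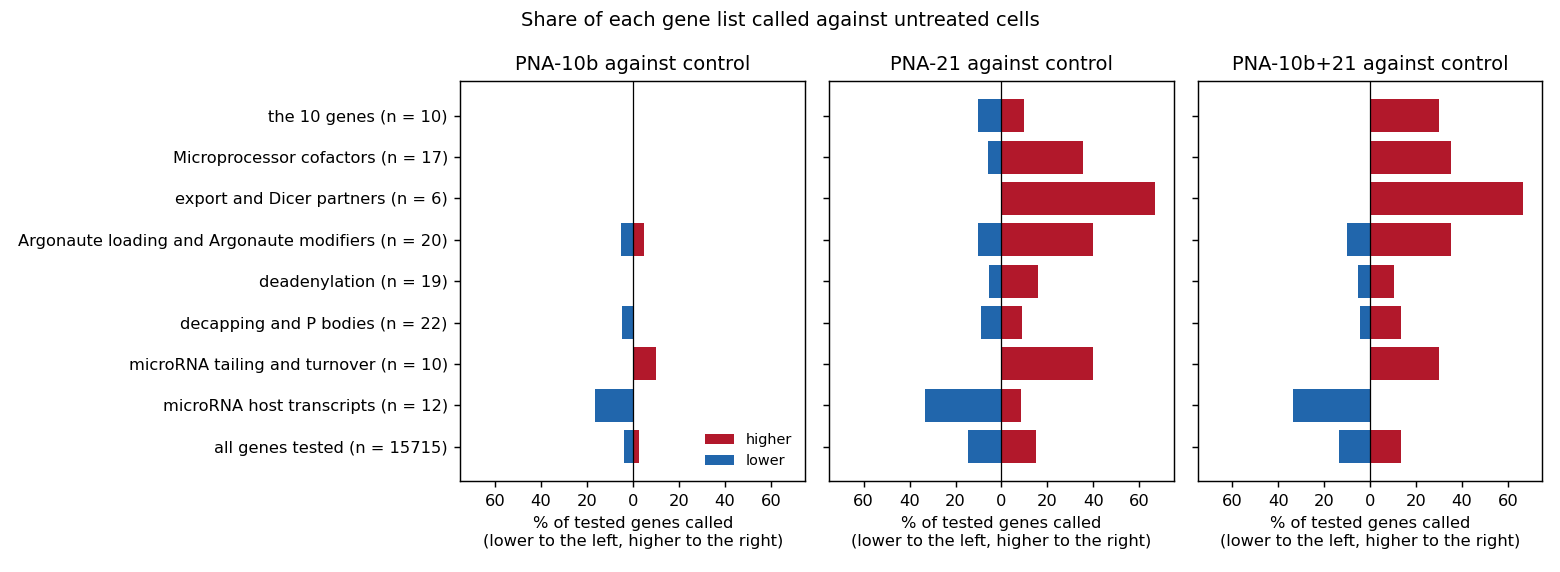
The plot gives the percentage of tested genes called higher (right) and lower (left) than control (horizontal axis) in each gene list (vertical axis, with the number tested) for PNA-10b, PNA-21 and PNA-10b+21. All genes tested are the last row, at 15.2% higher and 14.6% lower in PNA-21. In that group 4 of 12 host transcripts are lower and 1 higher, and 4 of 6 export and Dicer partners are higher.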

How the data were processed

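The deposited table holds raw counts per Ensembl gene for 12 libraries made with a stranded mRNA kit, per the labels' protocols. The submitters' processing notes name HISAT2 2.1.0, SAMtools 1.7, HTSeq 0.11.0 and hg38. Strand setting and annotation release: not given in the sources used here. Of 35741 genes, 34564 matched GENCODE release 29. Genes were kept with filterByExpr at a minimum count of 10 (15715 genes, 99.8% of counts), scaled by TMM and fitted in edgeR 4.0.16 (R 4.3.3) with 1 mean per group over all 12 libraries. Quasi-likelihood p-values were adjusted by Benjamini-Hochberg over all genes of a comparison and called under 0.05. There were 7 comparisons. CPM are counts scaled to TMM library size, and log2 CPM used a prior count of 2. The CPM of the cell type markers alone were scaled to the total count of the library, without TMM. Alternatives were RLE and upper-quartile scaling, no filter, DESeq2 1.42.0, only the compared groups, the replicate number as a block, and each library left out.

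The members and lists were chosen with earlier results of these data known. Of the 121 list entries 108 were tested, and 8 matched no gene name of the table. At most 4 genes were named per list, by smallest p against control at a mean log2 CPM of at least 1, with AGO4 and TNRC6C always named, and up to 3 genes most alike per called member. Named outside that rule were VMP1, TRMT2A and POLR1C for their position, and, after their values were seen, LIN28B, MIR17HG, DDX17, HSP90AA1, HSP90AB1, HSPA8, STIP1, PABPC4, DDX6, GEMIN4, FXR2 and TENT4B. 1 gene that the rule names is not reported here.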

Additional observations from a re-analysis of the deposited data

How the results depend on the processing

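Over the 7 comparisons, the number of the 10 genes called stayed within 1.5 times of the reported one under every alternative run: 0 stayed 0, 2 in PNA-21 became at most 3, and 3 in PNA-10b+21 became at least 2. Of 1250 recomputed changes of single members 1246 kept their side of the threshold, 2 lost a call, 2 gained one and 0 called values reversed. The lost calls were TARBP2 (0.19, adjusted p = 0.0501, without control replicate 3) and AGO2 (0.19, adjusted p = 0.0568, without PNA-10b+21 replicate 1), both in PNA-10b+21. The gained call was XPO5 in PNA-21, with the replicate block (0.18, adjusted p = 0.0461) and without PNA-21 replicate 3 (0.24, adjusted p = 0.0177). The lowest XPO5 value in PNA-21 among the 18 alternatives was 0.09, and the largest adjusted p was 0.351. Of 1160 values without a call 36 changed sign. DGCR8 in PNA-21 stayed called in all 18 alternatives, from -0.35 to -0.23, with adjusted p from 0.00195 to 0.0384.

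Replicate numbers did not clearly pair the libraries. Deviations of same-numbered libraries correlated between -0.0577 and 0.109 (median 0.0231), and those of other numbers between -0.087 and 0.118 (median -0.0103). Of 12 libraries, 6 correlated best with their own number. The replicate block changed no other member's call.

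Counts over all genes moved more. Calls in PNA-10b fell from 1019 to 470, 417 and 306 without control replicate 1, control replicate 3 and PNA-10b replicate 2, and in PNA-10b+21 from 4243 to 2748 without its replicate 1. PNA-10b+21 against PNA-10b went from 1525 to between 532 and 904 without PNA-10b replicate 3 or PNA-10b+21 replicate 1 or 2. PNA-21 against PNA-10b went from 1067 to between 545 and 693 without PNA-10b replicate 1 or PNA-21 replicate 1 or 3. PNA-10b+21 against PNA-21 went from 0 to 332 without the filter, 27 in DESeq2 and 48 with only its groups. The interaction went from 491 to 1074 without the filter and to between 92 and 1028 with a library left out. The cause was not tested.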

Other observations

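LIN28B, which blocks the maturation of let-7 microRNAs, was among the export and Dicer partner genes called higher, at low counts. It stood at 0.794 ± 0.298 CPM (SD, n = 3) in control and 2.06 ± 0.294 in PNA-21. In PNA-10b+21 it was at 1.54 ± 0.37 and in PNA-10b at 0.893 ± 0.397. Its log2 fold change was 1.33 ± 0.32 in PNA-21 (edgeR adjusted p = 0.00364) and 0.92 ± 0.34 in PNA-10b+21 (adjusted p = 0.0475). MIRLET7BHG, a host transcript of let-7 hairpins, had changes of -0.56 ± 0.09 and -0.39 ± 0.09 in the same groups.

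MIR17HG, the host of the miR-17 cluster, was the only host transcript of the 12 tested that rose, at 0.73 ± 0.23 in PNA-21 (adjusted p = 0.0232). Its level was low, at 2.21 ± 0.779 CPM (SD, n = 3) in control and 3.73 ± 0.325 in PNA-21. In PNA-10b+21 its value was 0.20 ± 0.25 (adjusted p = 0.604), and the difference between these groups was -0.53 ± 0.23 (adjusted p = 0.497).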
